A study of Mus musculus with 20 samples.

Results

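The cytosolic ribosomal proteins were followed here in mouse liver. Their messengers were read by every array probe whose annotated symbol is Rpl or Rps with a number, together with Rplp0, Rplp1, Rplp2 and Rpsa. That rule found 93 probes for 63 genes among the 45281 probes of the array, which carry 19057 annotated symbols. The S6 kinase genes (12 Rps6k probes) and 2 symbols that name other proteins (Rps19bp1 and Rps23rg1) were left out. By role the 63 genes comprised 33 proteins of the large subunit, 23 of the small subunit and 7 paralogs (Rpl22l1, Rpl36al, Rpl39l, Rpl3l, Rpl7l1, Rps27l and Rps4l). Of these, 78 probes for 56 genes were above background in at least 5 of the 20 arrays and were tested: 44 large-subunit, 27 small-subunit and 7 paralog probes. The other 15 probes were above background in 0 arrays, so Rpl14, Rpl17, Rpl39l, Rpl6, Rps20, Rps23 and Rpsa, the laminin-receptor protein of the small subunit, were not measured. Detection was complete, 20 of 20 arrays, for 65 of the 78 probes.

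The livers came from 20 females, 5 in each of 4 groups, and each gave 1 BeadChip array (Illumina Mouse WG-6 v2.0). Wild-type B6 mice, untreated, were 215 to 217 days old. The mutants were B6.Pdss2(kd/kd), homozygous for a missense allele of Pdss2 carried on a recombinant chromosome in generation 13 of backcrossing to B6; Pdss2 encodes a subunit of the enzyme that builds the side chain of coenzyme Q, the mobile electron carrier of the respiratory chain. Untreated mutants on standard chow were 129 to 143 days old, mutants fed chow with 1% probucol, an antioxidant that also lowers cholesterol (an estimated 95 mg per kg daily), were 140 to 145 days old, and mutants given coenzyme Q10 at 1 mg/ml (an estimated 400 mg per kg daily) were 153 to 156 days old. Every mutant was younger than every wild-type mouse, so genotype and age cannot be told apart in a comparison with wild type, and the CoQ10 group was older than the other mutants. The mutation is in the germ line, so it is present in all cells of the liver and in the kidney, where this mutant is known for disease.

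The ribosome is the particle that translates messenger RNA. Its small subunit reads the codons, its large subunit joins the amino acids, and each ribosomal protein is present in about equal number. In vertebrates the messengers of these proteins begin with a run of pyrimidines, the terminal oligopyrimidine (TOP) tract, through which the kinase mTOR regulates their translation together. In liver, ribosome number is known to vary with feeding and growth. An array reads messenger abundance only, and not the translation of these messengers.

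The labels of 10 arrays conflict: the prefix of the array name gives untreated where the treatment field gives probucol, and the reverse. The treatment field was followed, and every direction between untreated and probucol-treated mutants holds as labelled there. Urinary albumin in the labels was 13.52 to 57.34 mg per 24 h in the 5 mice labelled untreated, 0.84 to 1.86 in those labelled probucol and 0.14 to 0.20 in wild type. Untreated replicates 1 and 4 and probucol replicates 1, 2 and 4 were already known from other genes on these arrays to stand apart within their groups, and results were also computed without them. The arrays detected 12268 to 15003 probes each (median 13495). All values below are normalized log2 intensities, and levels are compared only within a probe. A probe was called where limma's adjusted p, over all 15096 probes tested, was under 0.05.

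Promoters are shown for 6 members with a single start in the table, picked after their values were seen: 5 with means above wild type that are described below and Rpl4, whose CoQ10 livers did not overlap untreated mutants. RefSeq start sites on GRCm38.p6 were available for 52 of the 63 genes, in 62 windows of 300 bases. Each line gives 100 bases before the start and the first 20 transcribed bases, 5′ to 3′ on the strand of the gene. Capitals mark a run of at least 6 pyrimidines within 5 bases of the start, and the hexamer CCGGAA, the core of ETS-family sites, on either strand. A hexamer not wholly within the printed bases is unmarked, as for Rpl39 and Rpl7l1, whose 300-base windows hold it.
Rpl12, chr2:32961612-32961731, plus strand: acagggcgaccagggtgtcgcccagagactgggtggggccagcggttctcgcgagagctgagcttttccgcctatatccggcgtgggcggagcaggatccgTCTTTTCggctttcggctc
Rpl38, chr11:114668480-114668599, plus strand: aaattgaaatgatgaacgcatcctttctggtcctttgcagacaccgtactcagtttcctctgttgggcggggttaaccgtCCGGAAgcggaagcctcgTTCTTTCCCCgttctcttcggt
Rpl39, chrX:37085203-37085322, minus strand: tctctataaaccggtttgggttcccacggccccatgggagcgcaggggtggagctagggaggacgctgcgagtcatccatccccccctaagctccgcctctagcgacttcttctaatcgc
Rpl41, chr10:128549149-128549268, minus strand: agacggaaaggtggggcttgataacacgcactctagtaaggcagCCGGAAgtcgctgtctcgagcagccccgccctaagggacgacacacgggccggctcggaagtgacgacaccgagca
Rpl7l1, chr17:46782637-46782756, minus strand: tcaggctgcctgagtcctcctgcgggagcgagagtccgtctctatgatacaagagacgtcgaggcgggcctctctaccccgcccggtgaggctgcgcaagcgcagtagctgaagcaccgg
Rpl4, chr9:64173287-64173406, plus strand: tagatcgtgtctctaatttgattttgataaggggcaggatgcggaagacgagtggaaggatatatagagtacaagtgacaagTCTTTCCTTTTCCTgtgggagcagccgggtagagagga
Such a pyrimidine run, over the start or within 5 bases of it, was found for 27 of 52 member genes (51.9%), against 23% of the 27025 genes of the table. In the 300-base windows CCGGAA, searched on both strands, was present for 29 member genes (55.8%) against 16.7% of all genes, and AAGATGGC, the core of the site of the factor YY1, for 4 (7.69%) against 3.19%. Both motifs overlapped each other in 1 member window. Rpl4 had a run of 14, Rpl38 a run of 10 and Rpl12 a run of 7, whereas the annotated starts of Rpl39, Rpl41 and Rpl7l1 had no run of 6. The run of Rpl4 ended before its annotated start, so none of it lies in the transcribed bases. These matches describe letters in RefSeq windows and no binding was measured.

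Taken over all 78 probes, ribosomal protein messengers had slightly higher means in each mutant group than in wild type. In untreated mutants 70 of 78 probes had the higher mean, with a median difference of 0.15 (1.11-fold), while the median over all 15096 probes was -0.0022 and 49.5% were higher. With probucol 68 of 78 were higher than in wild type, the median was 0.21 (1.16-fold), and over all probes the median was -0.01 and 47.9% were higher. With CoQ10 68 of 78 were again higher than in wild type, with a median of 0.17 (1.13-fold) against -0.0052 and 49.1%. These 3 comparisons share the same 5 wild-type livers. Few single probes passed the test: 0 of 78 in untreated mutants against wild type (0.119% of all probes were called), 1 of 78 with probucol (0.709% called) and 0 of 78 with CoQ10 (0.437% called), where the smallest adjusted p was 0.0530. At an unadjusted p under 0.05 the members counted 6, 24 and 25, of which 6, 23 and 25 were higher, against 5.5%, 12.3% and 13.3% of all probes in either direction and 2.77%, 6.17% and 7.32% of all probes higher.

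**Figure D1:**
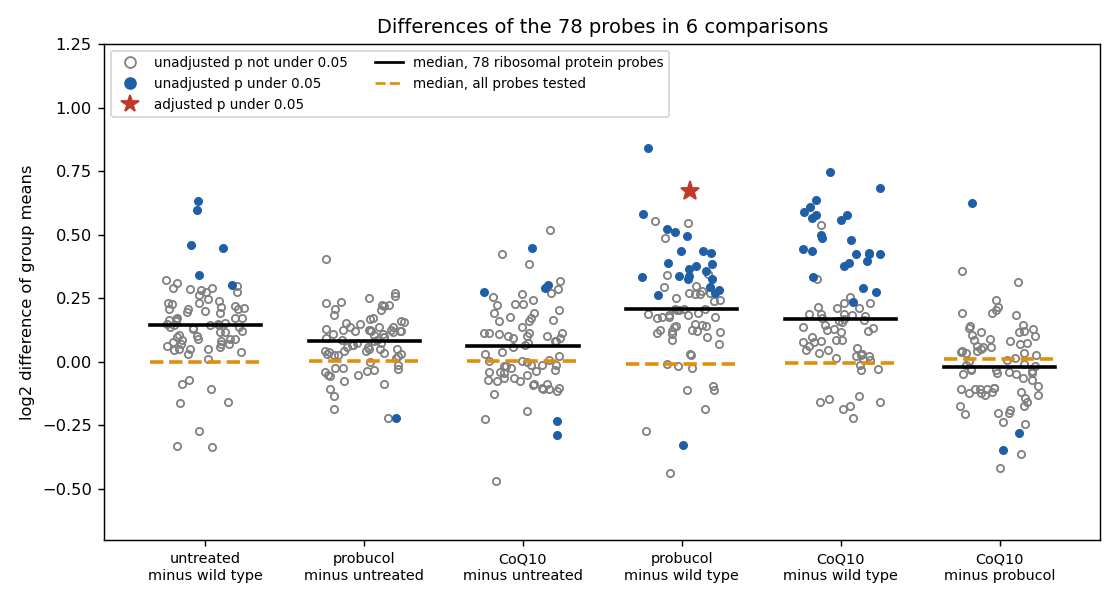
Difference of group means (log2) for the 78 ribosomal protein probes in each of 6 comparisons. Each point is 1 probe; black lines mark the median of the 78 and dashed orange lines the median of all 15096 probes tested. The black line lies at 0.15, 0.21 and 0.17 in the comparisons with wild type, and 1 probe (star, Rpl12) passed the adjusted threshold.

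Large- and small-subunit probes both had positive medians in these comparisons. The 44 large-subunit probes had median differences from wild type of 0.16 in untreated, 0.21 in probucol and 0.17 in CoQ10 mutants, with 40, 39 and 39 higher. The 27 small-subunit probes had medians of 0.15, 0.24 and 0.18, with 25, 25 and 23 higher. For the 65 probes detected on every array, 62, 60 and 60 were higher, with medians of 0.15, 0.24 and 0.19. Taking the brightest probe of each of the 56 genes, 53 were higher in untreated mutants than in wild type and 50 with probucol. The 7 paralog probes had medians of 0.03, 0.25 and 0.13.

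Among the mutant groups the medians lay nearer to 0. Between probucol and untreated mutants 60 of 78 probes were higher with probucol (50.3% of all probes), the median was 0.08, and 0 were called (0.0132% of all probes); 1 had an unadjusted p under 0.05, against 6.1% of all probes. From untreated to CoQ10 mutants 46 probes were higher (50.8% of all probes) and 32 lower, with a median of 0.06 and 0 called (0.119%); 6 had an unadjusted p under 0.05 against 9.39%. CoQ10 and probucol mutants differed by a median of -0.02, with 36 probes higher with CoQ10 (52.1% of all probes) and 42 lower, 0 called (0.0464%), and 3 at an unadjusted p under 0.05 against 9.95%. All 3 signs depend on the disputed labels: with the 2 groups exchanged the medians were -0.083 for probucol against untreated, -0.022 for CoQ10 against untreated and 0.061 for CoQ10 against probucol. Single livers moved them as well. The first median was 0.053, 0.044 and 0.141 without untreated replicate 2, 3 or 4. The CoQ10 median against untreated mutants was 0.038 and 0.023 without untreated replicate 2 or 3, and 0.024 and 0.093 without CoQ10 replicate 3 or 5. Between CoQ10 and probucol the sign turned without probucol replicate 1 or 3 (0.0021 and 0.0061) or CoQ10 replicate 1 or 5 (0.0024 and 0.038), and the median ranged down to -0.060 without CoQ10 replicate 3.

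The shift was not shared evenly by the livers of a group. For each array, the median deviation of the 78 probes from their means over all 20 arrays was taken. In wild type it was -0.20, -0.17, -0.13, -0.14 and -0.07 in replicates 1 to 5, a mean of -0.14 ± 0.05 (SD, n = 5). Untreated mutants read 0.09, -0.08, -0.10, 0.20 and -0.07, a mean of 0.0087 ± 0.13. Probucol-treated mutants read 0.18, -0.08, 0.20, 0.18 and -0.0032, a mean of 0.09 ± 0.12, and CoQ10-treated mutants 0.06, 0.07, 0.23, 0.12 and -0.10, a mean of 0.08 ± 0.12. The lowest of the mutant livers lay within the range of wild type in all 3 mutant groups. Untreated replicates 1 and 4 stood above the other 3 untreated livers. Untreated replicate 4 held the highest value of all 20 livers for 14 of the 78 probes. Untreated replicate 1 and CoQ10 replicate 3 held it for 10 each, and probucol replicate 1 for 8. The lowest values were found most often in wild-type replicate 1 (20 probes), CoQ10 replicate 5 (14 probes) and wild-type replicate 4 (10 probes). Without untreated replicates 1 and 4 the median difference between untreated mutants and wild type was 0.07 and 64 of 78 probes remained higher.

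**Figure D2:**
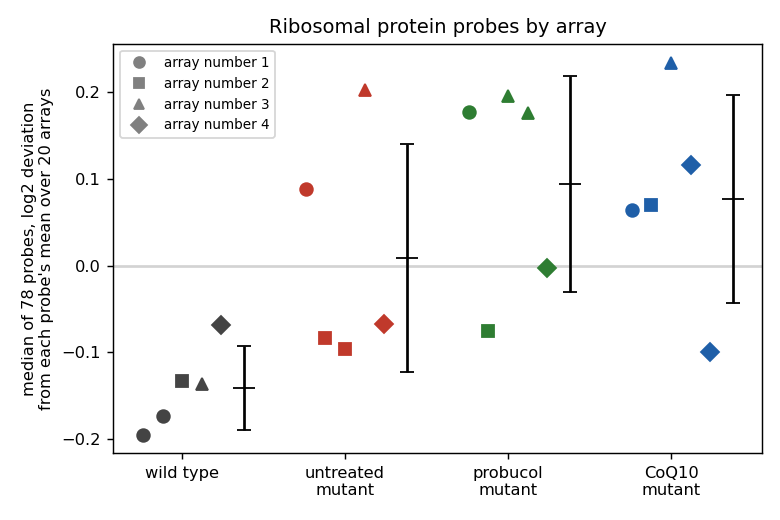
Median deviation (log2) of the 78 ribosomal protein probes from each probe's mean over 20 arrays, by liver and group; the symbol gives the number in the array name, and bars give the group mean and SD. Wild-type livers lie between -0.20 and -0.07, and each mutant group has livers both within and above that range.

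**Figure D3:**
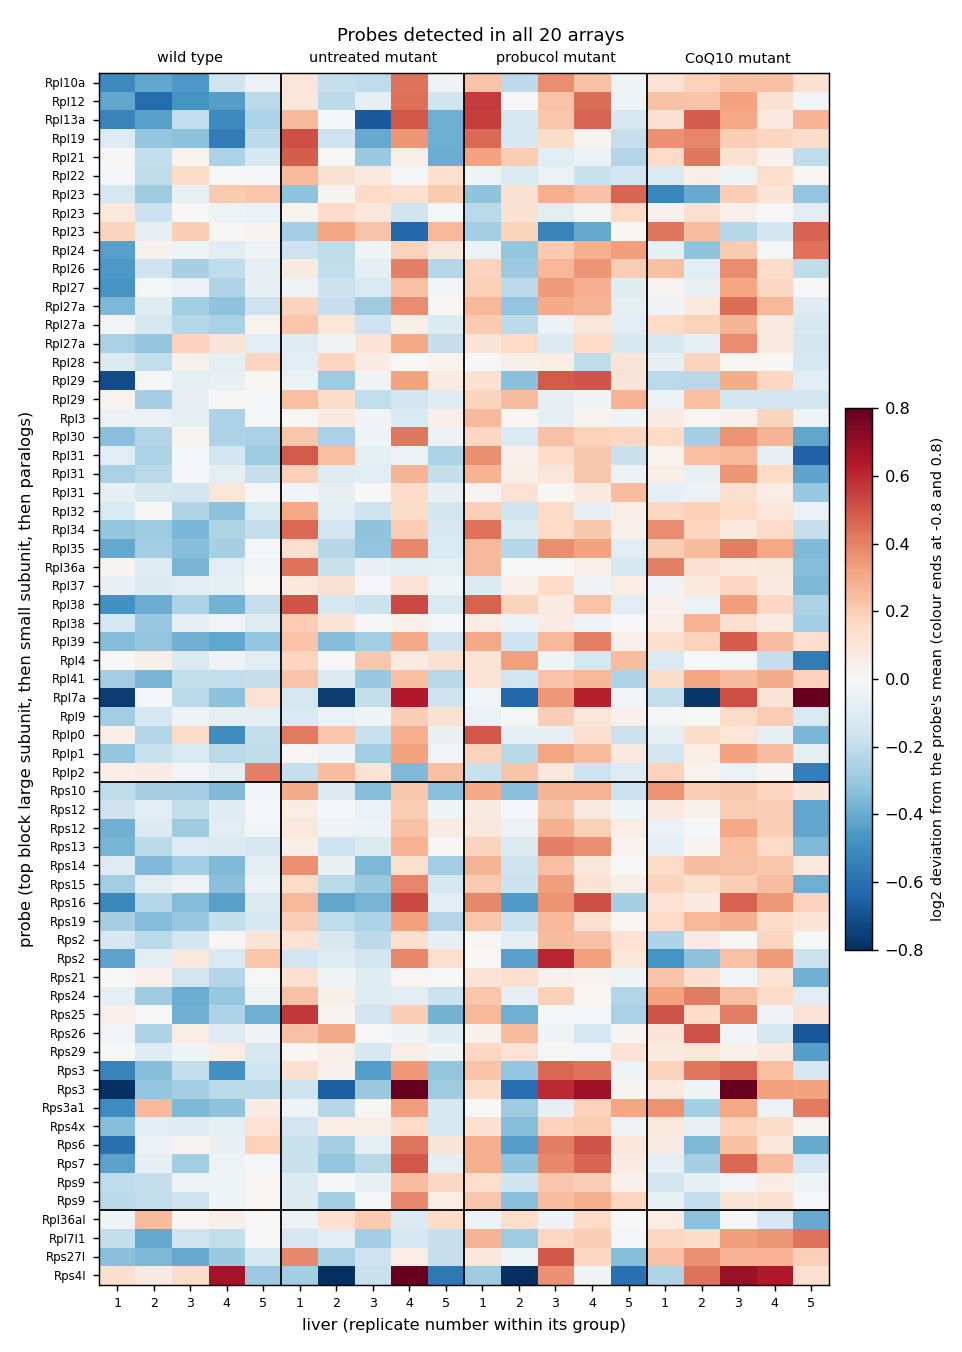
Log2 deviation from each probe's own mean for the 65 probes detected on all 20 arrays, livers in columns by group and probes in rows by subunit. Red cells collect in untreated replicates 1 and 4, probucol replicates 1, 3 and 4 and most CoQ10 livers, and blue cells in wild type, untreated replicates 2, 3 and 5, probucol replicate 2 and CoQ10 replicate 5.

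Other gene lists are given for the same livers. The median deviation of the 66 respiratory chain subunit genes tested, whose messengers are also short and abundant, was 0.20 and 0.21 in untreated replicates 1 and 4 and between -0.06 and 0.00015 in the other 3, and -0.12 in CoQ10 replicate 5. Kupffer cell markers (8 of 9 tested, Cd5l not above background) had a summed level, on the log2 scale, of 13.13 to 13.35 in wild type, 13.28 to 13.64 in untreated, 13.48 to 13.62 in probucol and 13.50 to 13.91 in CoQ10 mutants. Hepatocyte markers (7 of 8 tested, Tat not above background) summed to between 17.88 and 18.05 in all groups. Cholangiocyte markers (2 of 5 tested; Krt7, Krt19 and Epcam not above background) summed to 9.82 to 10.36 in wild type, 8.78 to 9.29 in untreated, 9.004 to 9.73 in probucol and 9.02 to 10.03 in CoQ10 mutants, so that neither untreated nor probucol-treated livers overlapped wild type. Of these, the keratin Krt23 fell by 1.94 with probucol against wild type (limma adjusted p = 0.00678). The other tested marker was also lower there, but only Krt23 had a limma unadjusted p under 0.05, and the median of the 2 was -1.05. Sinusoidal endothelial markers (5 of 7 tested) summed to 13.77 to 13.96 in wild type and 13.62 to 14.07 over the mutants. With probucol 3 of the 5 had higher means than in wild type and 2 lower, with a median of 0.05. Among them Lyve1, a hyaluronan receptor, rose by 0.86 (limma adjusted p = 0.0420) and was the only one called. Stellate and matrix markers (6 of 7 tested) summed to 13.79 to 13.98 in wild type and 13.50 to 13.99 over the mutants, lymphocyte markers (2 of 5) to 7.01 to 7.38 and 6.79 to 7.65, and erythroid markers (3 of 3) to 15.03 to 15.85 and 14.09 to 15.74. The part of these in the ribosomal protein differences was not tested, and in whole liver fewer cells of a type and less RNA per cell cannot be told apart.

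The array names carry a number from 1 to 4 that the labels do not explain, and each number covers all 4 groups. A number holds 5 arrays, so each value within a number rests on 1 or 2 livers per group. Numbers 1 and 3 hold untreated replicates 1 and 4 and probucol replicates 1, 3 and 4, and no other livers of those groups. Array number and single livers therefore cannot be told apart. Within numbers 1, 2, 3 and 4 the median difference between untreated mutants and wild type was 0.31, 0.06, 0.35 and -0.02, against 0.15 over all arrays. For probucol against wild type it was 0.35, 0.07, 0.34 and 0.08, and for CoQ10 against wild type 0.22, 0.17, 0.37 and 0.06. Only numbers 1 and 3 gave values above 0.2 in all 3 comparisons with wild type. Among the mutants the medians within a number lay between -0.04 and 0.08 for probucol against untreated, -0.05 and 0.14 for CoQ10 against untreated and -0.10 and 0.14 for CoQ10 against probucol, with both signs in each case. With the number as a block, the probes called were 2 for probucol against wild type (Rpl12 and Rpl39) and 10 for CoQ10 against wild type (Rpl10a, Rpl12, Rpl19, Rpl39, Rpl41, Rpl7l1, Rps19, Rps24, Rps25 and Rps27l), where the fit without it called 1 and 0. Over all 15096 probes the block fit called 116 for probucol and 316 for CoQ10, and the fit without it 107 and 66.

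**Figure D4:**
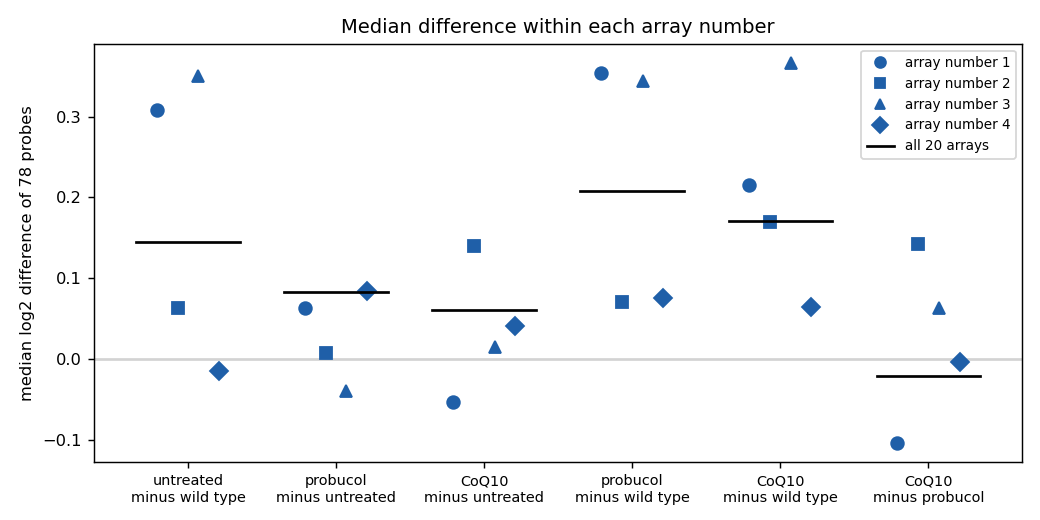
Median log2 difference of the 78 ribosomal protein probes between groups within each array number (symbols) and over all 20 arrays (black lines). In the comparisons with wild type, numbers 1 and 3 lie above numbers 2 and 4. Each symbol rests on 1 or 2 livers per group.

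Rpl12, which lies near the stalk base of the large subunit where elongation factors bind, was the single probe called. Its level was 12.55, 12.36, 12.49, 12.53 and 12.76 in wild-type replicates 1 to 5, and 13.06, 12.76, 12.89, 13.41 and 12.81 in untreated mutants. It was 13.53, 12.97, 13.20, 13.41 and 12.93 with probucol and 13.20, 13.20, 13.29, 13.09 and 12.95 with CoQ10. Every mutant liver was above every wild-type liver, untreated replicate 2 by less than the rounding of these values. Rpl12 rose by 0.67 ± 0.14 (SE, 1.59-fold) from wild type (mean 12.54 ± 0.15, SD, n = 5) to probucol-treated mutants (13.21 ± 0.26), with a limma adjusted p of 0.0230. Against wild type, the difference was 0.61 with CoQ10 (limma adjusted p = 0.0530) and 0.45 in untreated mutants (limma adjusted p = 0.440). The 3 mutant groups overlapped one another. The call for probucol was lost without wild-type replicate 2, 3 or 4 (limma adjusted p = 0.0874, 0.0734 and 0.0640) or without probucol replicate 1 or 4 (limma adjusted p = 0.0836 and 0.0949), with differences of 0.59 to 0.67. It was also lost without probucol replicates 1, 2 and 4 (0.53, limma adjusted p = 0.522) and under scaling to the median (0.81, limma adjusted p = 0.516).

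Rpl39, a very small protein of the large subunit at the wall of the exit tunnel, gave a similar picture without passing the test. Wild-type livers read 13.92, 13.96, 13.89, 13.86 and 13.96, probucol-treated mutants 14.57, 14.10, 14.53, 14.67 and 14.31, and CoQ10-treated mutants 14.41, 14.45, 14.76, 14.52 and 14.41. Neither treated group overlapped wild type. The differences were 0.52 ± 0.14 for probucol (limma adjusted p = 0.0761) and 0.59 ± 0.14 for CoQ10 (limma adjusted p = 0.0543). Untreated mutants lay on both sides, at 14.50, 13.93, 13.99, 14.58 and 14.10.

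Rpl41, the shortest ribosomal protein, was 15.42, 15.32, 15.49, 15.49 and 15.50 in wild type and 15.84, 16.01, 15.95, 15.99 and 15.87 with CoQ10, with no overlap (0.49 ± 0.12, limma adjusted p = 0.0781). With probucol it was 15.80, 15.53, 15.92, 15.95 and 15.44, and in untreated mutants 15.92, 15.58, 15.39, 15.93 and 15.47, both overlapping wild type. The highest raw intensity of this probe was 69384.3 against 73153.5 for any probe, and saturation was not tested.

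Rpl38, a large-subunit protein required in mouse for translation of homeobox messengers in the embryo, was read by a pair of probes. The dimmer one was 8.47, 8.56, 8.70, 8.58 and 8.77 in wild type and 9.46, 8.82, 8.78, 9.48 and 8.83 in untreated mutants, which did not overlap (0.46 ± 0.15, limma adjusted p = 0.538). It was 9.43, 9.14, 9.02, 9.18 and 8.87 with probucol (0.51 above wild type, limma adjusted p = 0.140) and 8.99, 8.91, 9.29, 9.12 and 8.70 with CoQ10. The brighter probe differed from wild type by 0.19, 0.14 and 0.18 in untreated, probucol and CoQ10 mutants, smaller values of the same sign.

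Rpl13a, a large-subunit protein often used as a reference gene, read 9.20, 9.29, 9.53, 9.21 and 9.47 in wild type against 10.27, 9.60, 9.94, 10.19 and 9.60 with probucol and 9.85, 10.21, 10.03, 9.80 and 9.999 with CoQ10. Both treated groups lay wholly above wild type (0.58 and 0.64, limma adjusted p = 0.171 and 0.119). Untreated mutants spread from 9.05 to 10.22, the widest range of the 4 groups for this probe.

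In the stalk, the flexible arm of the large subunit that recruits translation factors, differences from wild type had both signs. Whether its members differed from one another was not tested. Rplp0, its anchor, differed from wild type by 0.28, 0.21 and 0.09 in untreated, probucol and CoQ10 mutants, from a wild-type range of 6.98 to 7.63. Rplp1 differed by 0.21, 0.33 and 0.29 (limma adjusted p = 0.977, 0.275 and 0.320), with wild-type livers at 15.16 to 15.35 and CoQ10 livers at 15.33 to 15.80. Its partner Rplp2 differed by -0.07, -0.11 and -0.16 at the bright probe (limma adjusted p = 0.999, 0.851 and 0.717) and by 0.21, 0.26 and 0.14 at the dim one, which was above background in 8 of 20 arrays.

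The small subunit held no called probe. Rps24, a protein of that subunit, had the largest member difference for probucol against wild type, at a probe for one of its RefSeq transcripts that was detected in 19 of 20 arrays. It read 6.20, 6.86, 6.83, 6.62 and 7.22 in wild type, 7.82, 7.32, 7.21, 7.53 and 7.01 in untreated mutants, 8.03, 7.27, 7.80, 7.74 and 7.11 with probucol, and 7.39, 7.80, 7.82, 7.36 and 7.10 with CoQ10. One wild-type liver, replicate 5, lay within each mutant range. The differences from wild type were 0.63, 0.84 and 0.75 (limma adjusted p = 0.511, 0.0618 and 0.103). A bright probe for another transcript of Rps24 differed by 0.21, 0.24 and 0.43. Without wild-type replicate 5 or without probucol replicate 5 the dim probe passed for probucol (limma adjusted p = 0.0440 and 0.0223).

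Rps6, the target of the S6 kinases, differed from wild type by 0.10, 0.27 and 0.03 in untreated, probucol and CoQ10 mutants (limma adjusted p = 0.999, 0.619 and 0.978); its wild-type livers spread from 12.46 to 13.24. Rps19, mutated in human Diamond-Blackfan anaemia, read 13.38, 13.29, 13.34, 13.45 and 13.50 in wild type and 13.80, 13.91, 13.93, 13.79 and 13.75 with CoQ10 at its bright probe, without overlap (0.44 ± 0.12, limma adjusted p = 0.102). Its dim probe, detected in 9 of 20 arrays, differed by -0.15 in that comparison. Rps3, which sits at the entry of the messenger channel, was one of the genes whose probes gave the same sign throughout: with CoQ10 they lay 0.58 and 0.68 above wild type, and neither overlapped it.

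Some probes separated the mutants from wild type without overlap. In 15 of 78 probes every CoQ10 liver was above every wild-type liver (2.75% of all probes), and in 0 of 78 below (1.86%). For probucol 6 probes lay wholly above wild type (1.37%) and 0 below (1.76%), and for untreated mutants 3 (0.749%) and 0 (0.808%). The 15 were Rpl10a, Rpl12, Rpl13a, Rpl19, Rpl34, Rpl39, Rpl41, Rpl7l1, Rps10, Rps14, Rps16, Rps19, Rps27l and both probes of Rps3. The 6 were Rpl12, Rpl13a, Rpl22l1, Rpl34, Rpl38 and Rpl39. Between CoQ10 and probucol 0 of 78 were separated in either direction (0.881% of all probes higher and 0.643% lower), and between probucol and untreated mutants 0 lay wholly higher (0.397%).

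**Figure D5:**
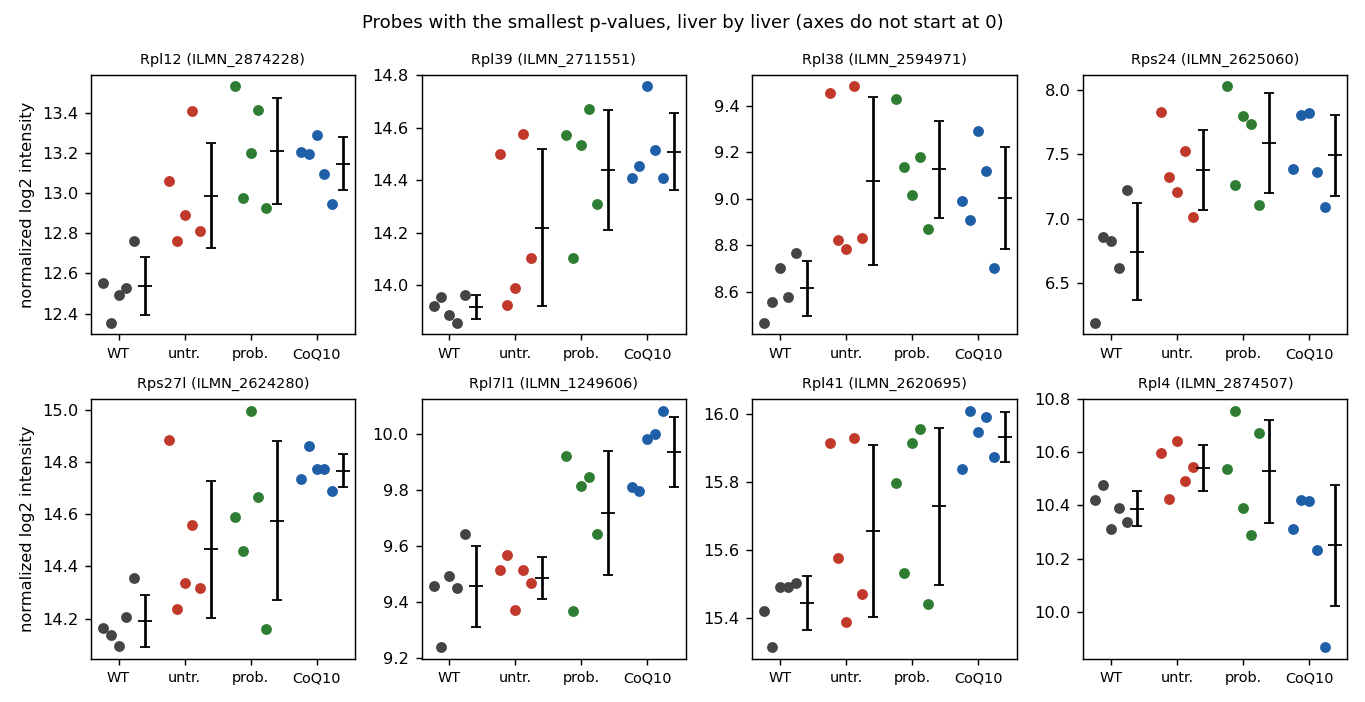
Normalized log2 intensity of 8 probes in each liver, by group, with group mean and SD (n = 5). CoQ10 livers lie wholly above wild type for Rpl12, Rpl39, Rps27l, Rpl7l1 and Rpl41, and wholly above untreated mutants for Rpl7l1, whereas for Rpl4 no CoQ10 liver exceeds any untreated one.

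The paralogs included the member with the smallest p among mutants. Rpl7l1, a homologue of Rpl7, read 9.51, 9.57, 9.37, 9.52 and 9.47 in untreated mutants and 9.81, 9.80, 9.98, 10.002 and 10.08 with CoQ10. Those groups did not overlap, and 0.715% of all probes lay wholly higher in this comparison. The difference was 0.45 ± 0.11 (1.36-fold, limma adjusted p = 0.126). Wild-type livers read 9.46, 9.24, 9.49, 9.45 and 9.64, below every CoQ10 liver (0.48, limma adjusted p = 0.0588), and probucol-treated ones 9.92, 9.37, 9.82, 9.85 and 9.64. A dimmer probe of the gene, detected in 12 arrays, differed between CoQ10 and untreated mutants by 0.20.

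Rps27l, a paralog of Rps27 known in human and mouse cells as a target of p53, read 14.16, 14.14, 14.09, 14.21 and 14.36 in wild type and 14.73, 14.86, 14.78, 14.78 and 14.69 with CoQ10 (0.58 ± 0.14, 1.49-fold, limma adjusted p = 0.0638). Untreated mutants, at 14.89, 14.24, 14.34, 14.56 and 14.32, and probucol-treated ones, at 14.59, 14.46, 15.00, 14.67 and 14.16, overlapped both. Rpl22l1, the paralog that in mouse is raised when Rpl22 is lost, was 0.60, 0.55 and 0.13 above wild type in untreated, probucol and CoQ10 mutants (limma adjusted p = 0.890, 0.448 and 0.904). Its range in untreated mutants alone was 6.25 to 7.97, at a dim probe detected in 17 of 20 arrays. Rpl3l, a paralog restricted largely to muscle in mouse, stayed between 6.08 and 6.93 in all 20 livers. Its probe was dim, with a highest raw intensity of 349.3, and was detected in 19 arrays. The probe of Rps4l is annotated to a non-coding RefSeq transcript. Rps4l read 7.62, 8.29, 8.55, 8.50 and 7.99 with CoQ10 against 7.57, 6.95, 8.22, 7.82 and 7.26 with probucol, overlapping ranges with a difference of 0.62 ± 0.28 (limma adjusted p = 0.457).

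A few members were lower, and these too missed the threshold. Rpl4, a core protein of the large subunit that lines the exit tunnel, was 10.60, 10.42, 10.64, 10.49 and 10.55 in untreated mutants and 10.31, 10.42, 10.42, 10.23 and 9.87 with CoQ10. Those ranges met without overlapping (-0.29 ± 0.12, limma adjusted p = 0.411), and 0.967% of all probes lay wholly lower. Rpl22 was 10.75, 10.62, 10.58, 10.49 and 10.63 in untreated mutants and 10.46, 10.39, 10.45, 10.32 and 10.35 with probucol, also without overlap (-0.22 ± 0.09, limma adjusted p = 0.714, 0.51% of all probes wholly lower). Rpl36al, a paralog of Rpl36a, differed by -0.23 between CoQ10 and untreated mutants (limma adjusted p = 0.516). The 4 probes of Rpl23 disagreed in sign, with differences between probucol and wild type from -0.27 to 0.17. Rps4l, annotated to a non-coding transcript and detected in all 20 arrays, had the largest member fall for probucol against wild type (-0.44, limma adjusted p = 0.567). In untreated mutants it was -0.33 against wild type (limma adjusted p = 0.999). Dim probes of Rps15a (-0.33 for probucol against wild type, detected in 11 arrays) and Rpl21 (-0.16 for untreated against wild type, detected in 11 arrays) were also lower. Rps25 differed by -0.14 between probucol and untreated mutants and by 0.31 between CoQ10 and probucol.

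Where a gene had several tested probes, they did not always give one sign. This held for 5 of 17 such genes in untreated mutants against wild type, 4 with probucol and 6 with CoQ10. Ribosomal protein genes have many near-identical processed copies in the mouse genome, the probe sequences were not available here, and signal shared with such copies was not tested. Replicate livers varied by a median SD of 0.23 for the members and 0.26 for all 15096 probes. The widest spread belonged to Rpl7a (SD 0.63), where CoQ10 replicate 5 read 11.95 and the other 19 livers 9.31 to 10.73; this probe was singled out after its values were seen.

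Genes that act with the ribosome were read beside its proteins. Among 27 translation factor genes tested, 15 were higher than in wild type in untreated, 17 in probucol and 13 in CoQ10 mutants, with medians of 0.0093, 0.06 and -0.03, and 0 were called. The 12 other TOP messengers tested are known to share the pyrimidine start without being ribosomal proteins, and their starts were not examined here. They had medians of -0.01, 0.04 and -0.15 and 0 calls. Most of them are also in the translation factor or ribosome biogenesis lists, so these lists are not independent. Among these TOP messengers Eef1b2, a subunit of the elongation factor exchange complex, was 0.54 above wild type with probucol (limma adjusted p = 0.103). Of 34 ribosome biogenesis genes, 22, 28 and 20 were higher, with medians of 0.08, 0.15 and 0.08 and 0 calls. Rrp12, which acts in subunit export, was 0.63 above wild type with probucol (limma adjusted p = 0.110). In the mTOR pathway, 16 genes had medians of -0.04, -0.04 and -0.14 and 0 calls, and Rptor, the mTOR partner that defines its nutrient-sensing complex, was -0.29 with CoQ10 (limma adjusted p = 0.208).

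The mitochondrial ribosome, a separate particle encoded by other genes, was also read. Of its 73 genes tested 59, 59 and 52 were higher than in wild type in untreated, probucol and CoQ10 mutants, with medians of 0.13, 0.15 and 0.15. Mrpl20 rose by 0.80 with probucol and by 0.89 with CoQ10 (limma adjusted p = 0.0336 and 0.0220), the one called gene of the list in each. Respiratory chain subunits had medians of 0.17, 0.16 and 0.20, with 61, 53 and 58 of 66 higher, and Ndufb2 and Cox7a1 rose by 1.10 and 1.17 with CoQ10 (limma adjusted p = 0.0319 and 0.0425). The differences between these lists and the cytosolic ribosomal proteins were not tested. Of the Kupffer cell markers Folr2 and C1qa rose with CoQ10 against wild type, by 1.04 and 0.88 (limma adjusted p = 0.00133 and 0.0189), and all 8 had higher means there.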

How the data were processed

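The sources are 20 liver arrays, 5 in each of 4 groups taken from the treatment field of the labels. The authors deposited non-normalized bead intensities per probe with a detection fraction between 0 and 1, and, separately, log2 values made by a method that the sources used here do not name. The deposited fraction rose with intensity (rank correlation 0.99 to 0.996), so 1 minus it was used as the detection p. The medians of the authors' log2 columns were 7.81 to 7.82, and each of the 20 columns matched its own array best.

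Intensities were background-corrected from the detection p (limma 3.58.1 nec, offset 16, in R 4.3.3), quantile-normalized and taken to log2. Probes with a detection p under 0.05 in at least 5 arrays were kept (15096 of 45281). One limma model with a mean per group was fitted to all 20 arrays, and p-values were adjusted by Benjamini-Hochberg over all kept probes in each of 6 pairwise comparisons. The script recovered known changes when tested on simulated data. Those changes were larger than any member difference described here, and the noise was independent between probes. Recovery of small or shared shifts was therefore not tested. Symbols came from the platform annotation: 34885 probes had 1 symbol, 18 several and 10378 none. Promoters came from RefSeq, GRCm38.p6.

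Named members were every called probe, the 4 probes higher and the 4 lower with the smallest p in each comparison, and members fixed by role (Rpl5, Rpl11, Rps27a and Rpl10l are not among the annotated probes). From every other list up to 2 genes of smallest p could be named. The members and lists were chosen with earlier results of these data known. Replicate numbers were not taken to pair livers, though 17 of 30 pairs of same-numbered livers had deviations correlated above 0.1 (range -0.32 to 0.46). All pairs of replicate 1 (0.10 to 0.43) and of replicate 4 (0.23 to 0.42) were among the 17. In every group replicate 1 carries array number 1. Fits with the replicate number or the array number as a block are given as alternatives. Each mouse gave 1 array, so the number of arrays limits the precision. Alternatives were another background, scaling, filter, block and fit, the authors' values, exchanged groups and each liver left out.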

Additional observations from a re-analysis of the deposited data

Results flagged for a closer look

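In each group of 5 livers, the gap between the highest or lowest liver and the next one was compared with the range of the group (Dixon's criterion) for the 78 ribosomal protein probes and for the per-array medians. Of 316 groups of values examined, 15 were marked, where chance marks about 1 in 20.

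In wild type, replicate 1 was low for Rpl24 (12.10, next 12.44), for a dim Rpl29 probe (9.84, next 10.49) and for a Rps3 probe (11.07, next 11.67). Wild-type replicate 4 was low for Rpl3 (14.09, next 14.27), replicate 3 was high for Rpl30 (10.56, next 10.30) and replicate 2 was high for Rpl36al (14.62, next 14.41). In untreated mutants, replicate 1 was high for Rpl36a (13.53, next 13.04). Among probucol-treated mutants replicate 2 was low for Rpl26 (13.08, next 13.56), Rpl30 (10.42, next 10.71) and Rps9 (12.07, next 12.58). Among CoQ10-treated mutants replicate 5 was low for Rpl35 (13.33, next 13.88), Rps12 (14.44, next 14.89), Rps15 (11.68, next 12.20) and Rps29 (15.10, next 15.58), while replicate 2 was high for a bright Rpl29 probe (12.94, next 12.65). The cause was not tested.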

How the results depend on the processing

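The number of ribosomal protein probes called depended on the processing. For probucol against wild type it was 1, and 2 with no background correction or with the array number as a block. It was 0 under median scaling, with only the 2 groups fitted, with the untreated and probucol groups exchanged and without probucol replicates 1, 2 and 4, and 0 to 2 with single livers left out. Over all 15096 probes the calls for probucol were 107, then 143 with no background correction and 116 with the array number as a block. They were 9 under median scaling, 66 with only the 2 groups fitted and 18 with the groups exchanged. Without probucol replicates 1, 2 and 4 they were 13, and with single livers left out 16 to 268. For CoQ10 against wild type the ribosomal protein count was 0, and 6 with no background correction, 1 with the authors' log2 values, 5 when only probes detected in all 20 arrays were tested, 10 with the array number as a block, 2 with the replicate number as a block (replicate block, Rpl12 and Rpl39) and 7 with only the 2 groups fitted. In the same order the calls over all 15096 probes were 66, 130, 70, 130 (of 10176 tested), 316, 84 and 186. Leaving out single livers kept the ribosomal protein count at 0. For untreated mutants against wild type that count was 0, and 1 with the groups exchanged, where the calls over all probes were 18 and 107. The replicate block changed no other count of ribosomal protein probes. The median difference of probucol against wild type was 0.34 under median scaling, and that of probucol against untreated mutants was -0.083 with the groups exchanged. Single livers left out gave medians of 0.10 to 0.18 for untreated, 0.20 to 0.26 for probucol and 0.12 to 0.24 for CoQ10 mutants against wild type, and 0.044 to 0.141, 0.023 to 0.093 and -0.060 to 0.038 for probucol against untreated, CoQ10 against untreated and CoQ10 against probucol. For probucol against untreated mutants the exchange gave -0.23 and -0.41 for Rpl7l1, -0.22 for Rpl39 and Rpl12, 0.22 for Rpl22 and Rps15a, 0.19 for Rpl23 and 0.14 for Rps25, and without untreated replicates 1 and 4 Rps25 was 0.085. The exchange turns signs by construction; the cause of the other changes was not tested. A tally was made for the 23 probes that were called or had the smallest p, and left out members named only by role. Over all alternatives, 924 values kept their sign and side of the threshold, 23 passed it anew, 9 no longer passed and 9 turned sign. Only 1 value, Rpl12 for probucol against wild type, had passed at first, and all 9 that no longer passed were of it. The 924 are therefore mostly values that were not called in either fit. Under median scaling the medians of all probes lay between -0.077 and 0.052. Dim probes and 5 livers per group limit what could be called.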
